A study of Caenorhabditis elegans with 2 samples.

Results

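Cuticle collagen genes were taken as the nuclear protein-coding genes whose name begins with col-, together with sqt-1, sqt-2, sqt-3, rol-6, dpy-2, dpy-3, dpy-5, dpy-7, dpy-8, dpy-9, dpy-10, dpy-13, dpy-17, bli-1 and bli-2. This gave 171 genes of 19973 nuclear protein-coding genes in the annotation, 156 with a col- name and 15 with another name. The data were lists of regions from ChIP-seq (chromatin immunoprecipitation and sequencing) of FKH-6, a forkhead transcription factor known for its role in development of the somatic gonad. The worms were Caenorhabditis elegans hermaphrodites of strain OP78, which carries the unc-119(ed3) allele on chromosome III and the transgene wgIs78, from which FKH-6 is expressed with a GFP-FLAG tag at its C-terminus; fkh-6 was the gene the insertion targeted. Whole late embryos were taken 5.5 hours after synchronization by egg bleaching, and chromatin was sheared by sonication and recovered with an antibody against GFP. There was 1 group of 2 biological replicates, so nothing was compared between conditions: the collagen genes were set against all or the other protein-coding genes in the same lists. The promoter of the transgene, its copy number and its extent were not given in the sources used here. Signal from whole embryos is not resolved by cell type.

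The cuticle of C. elegans is an extracellular coat that the hypodermis secretes and replaces at each moult, and most of its protein is collagen. The chains contain long runs of Gly-X-Y repeats, and glycine is encoded by GGN codons, so the genes carry a repetitive coding sequence that is rich in G and C. Late embryos are the stage at which the cuticle of the first larva is made, and collagen genes as a family are transcribed in bursts before each moult. The family held short genes, with a median gene length of 1219 bp (range 521 to 9946 bp) against 2027 bp over all protein-coding genes. Chromosome IV held 43 of the genes, V 32, II 31, X 30, I 22 and III 13, and 53 of the 171 had the start of another collagen gene within 5000 bp. Of the genes with a col- name, col-99 is known as a transmembrane collagen and not a cuticle collagen; it was kept under the naming rule.

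The authors deposited a reproducible list of 767 regions, 746 of them nuclear, a permissive list of 26164 regions from both replicates pooled, and a list for each replicate with 19624 regions in replicate 1 and 26209 in replicate 2. The 767 reproducible regions were the 767 of highest signal in the pooled list. A place among them therefore does not show that each replicate by itself ranked the region high. The authors' label for the pooled list is peaks and background, so a region in it is not by itself a called peak. Of the pooled regions 1098 had a deposited −log10 q-value of 2 or more, as did 0 in replicate 1 and 1074 in replicate 2. The highest deposited value was 2.19 in the pooled list, 1.86 in replicate 1 and 2.48 in replicate 2. The limit of 2 thus lay above every value of replicate 1, and the 0 does not show that it lacked high-signal regions. A region's signal is the authors' own value on a scale that was not given in the sources used here. It is used below to order regions of 1 list. Read counts are absent from the lists, and the sequencing depth is unknown. A gene was counted as having a region where the region's summit lay within 2000 bp of the gene's 5' end, on either side. Positions are in ce11.

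By that rule 10 of the 171 collagen genes had a reproducible region, or 5.85% (95% Wilson interval 3.21 to 10.4%), against 825 of all 19973 protein-coding genes, or 4.13%. As the nearest protein-coding start to a reproducible summit there were 9 (5.26%), against 512 genes (2.56%). The 10 summits fell into 3 kinds of place. At col-181, col-85, col-94 and col-185 the summit lay within 15 bp of the start of a tRNA or snRNA gene beside or inside the collagen gene. At col-83, col-91, col-77, sqt-3 and col-138 it lay inside the collagen gene's own coding exons. At col-2 it lay upstream, nearer to the start of another protein-coding gene.

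The genomic sequence at 8 of these summits is shown because it is where the kinds of place can be seen directly; each line gives 101 bases centred on the summit, read from the RefSeq WBcel235 genome, which is ce11. At the first 3 the capitals mark the bases of the tRNA gene. The windows are chrX:12106173-12106273, minus strand, for col-181; chrII:12494704-12494804, plus strand, for col-85; and chrX:13511982-13512082, minus strand, for col-185.
col-181: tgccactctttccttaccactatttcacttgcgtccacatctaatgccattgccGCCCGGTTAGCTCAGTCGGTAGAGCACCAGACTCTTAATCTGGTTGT
col-85: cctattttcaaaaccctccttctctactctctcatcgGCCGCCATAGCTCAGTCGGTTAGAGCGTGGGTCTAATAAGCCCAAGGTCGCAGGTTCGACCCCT
col-185: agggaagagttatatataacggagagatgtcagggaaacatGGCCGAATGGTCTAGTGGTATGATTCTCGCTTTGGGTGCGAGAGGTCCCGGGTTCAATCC
In the coding-exon windows, given on the strand of the collagen gene, the capitals mark the in-frame GGN codons. They lie at chrII:11044361-11044461, minus strand, for col-83; chrIII:8262753-8262853, minus strand, for col-91; chrII:8358613-8358713, minus strand, for col-77; and chrIV:17183228-17183328, minus strand, for col-138.
col-83: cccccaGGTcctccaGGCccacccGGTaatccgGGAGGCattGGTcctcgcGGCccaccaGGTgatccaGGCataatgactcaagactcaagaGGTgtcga
col-91: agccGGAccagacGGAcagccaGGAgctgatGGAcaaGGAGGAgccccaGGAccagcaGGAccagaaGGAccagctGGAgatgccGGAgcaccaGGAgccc
col-77: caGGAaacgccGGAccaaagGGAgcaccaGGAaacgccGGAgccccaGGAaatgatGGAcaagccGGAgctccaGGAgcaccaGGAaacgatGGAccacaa
col-138: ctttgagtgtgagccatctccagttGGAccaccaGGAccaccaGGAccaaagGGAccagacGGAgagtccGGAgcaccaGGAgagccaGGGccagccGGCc
All 101 bases were coding in each of these 4 windows. Of the 33 whole codons in a window, 10 were GGN in col-83, 12 in col-91, 11 in col-77 and 9 in col-138. The last window, chrIV:10085866-10085966 on the minus strand, is upstream of col-2 and has no capitals; it holds a run of GA repeats.
col-2: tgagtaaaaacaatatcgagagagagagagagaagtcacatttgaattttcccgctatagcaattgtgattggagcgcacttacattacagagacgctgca

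The regions at small RNA genes had the highest signals of the collagen set. The col-181 region (chrX:12106071-12106387) had a pooled signal of 349, rank 31 in the pooled list, with 182 in replicate 1 and 175 in replicate 2. Its summit lay 1293 bp downstream of the col-181 start, past the 3' end of the gene, and 4 bp from the start of the tRNA gene WBGene00014540. The col-85 region (chrII:12494667-12494878) had a pooled signal of 310, with 143 in replicate 1 and 165 in replicate 2; its summit lay in an intron of col-85, 341 bp from the start of col-85 and 13 bp from that of the tRNA gene WBGene00014524. Both of these therefore sat on tRNA genes that share a locus with a collagen gene, and both ranked between 25 and 45 in each replicate.

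The col-94 region had a pooled signal of 275, with 125 in replicate 1 and 148 in replicate 2. Its summit lay 1821 bp upstream of col-94, in an intron of dhc-4, a dynein heavy chain gene, and 15 bp from the start of the snRNA gene R07E5.16. The col-185 region (chrX:13511802-13512261) had a pooled signal of 168, with 83.2 in replicate 1 and 86.0 in replicate 2, and lay 935 bp upstream of col-185 and 9 bp from the start of the tRNA gene WBGene00014413. All 4 ranked 25 to 139 in replicate 1 and 39 to 202 in replicate 2, inside the 767 highest of each replicate. Just past the distance limit, col-128 had a summit 2043 bp from its start with a pooled signal of 225, and it too was next to a small RNA gene, 53 bp from the start of the snoRNA gene F12F6.11. A further summit lay 2028 bp upstream of col-94 with a pooled signal of 125, in a coding exon of dhc-4 and 222 bp from the start of R07E5.16.

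The start of a tRNA gene was found within 2000 bp of 4 collagen genes (2.34%) and of 340 protein-coding genes in all (1.7%). The collagen genes were col-54, col-85, col-181 and col-185, and 3 of the 4 had a reproducible region, against 100 of the 340 (29.4%). Without such genes the share with a reproducible region was 7 of 167 collagen genes, or 4.19%, against 725 of 19633, or 3.69%. For 7 of the 10 collagen genes with a region every summit was nearer to a non-coding start than to the collagen start (70%), against 281 of 825 genes (34.1%). Besides the 4 at small RNA genes described above these were col-83, col-2 and sqt-3. At those genes the non-coding start was farther off, at 1331 bp for col-83, 433 bp for col-2 and 730 bp for sqt-3. The summits of col-83 and sqt-3 lay in the collagen's own coding exon. Only col-91, col-77 and col-138 had a summit nearer to their own start than to any non-coding start, or 3 of 171 (1.75%) against 544 genes (2.72%).

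The coding-exon regions had lower signals, and the replicates ranked them differently. The col-83 region (chrII:11044181-11044640) had a pooled signal of 115, with 47.7 in replicate 1 and 66.8 in replicate 2. The col-91 region (chrIII:8262573-8263032) had 100.1, with 46.9 in replicate 1 and 51.3 in replicate 2, and this summit also lies in an intron of ncr-2. The col-77 region (chrII:8358433-8358892) had 100.07, with 38.99 in replicate 1 and 59.8 in replicate 2. The next in rank belonged to sqt-3, a collagen gene whose mutations alter body shape and which is needed for the embryo's cuticle. Its region had a pooled signal of 92.9, with 28.0 in replicate 1 and 63.0 in replicate 2. The col-138 region (chrIV:17183048-17183507), in a stretch that is also an intron of C52D10.3, had 92.2, with 33.5 in replicate 1 and 58.6 in replicate 2.

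These 5 summits lay 451 to 1561 bp downstream of the gene start. They ranked 392 to 787 in replicate 2, where 4 were among the 767 highest regions, and 538 to 3713 in replicate 1, where 2 were. For sqt-3 the rank was 446 in replicate 2 and 3713 in replicate 1, and for col-138 it was 555 in replicate 2 and 1908 in replicate 1, so both were among the 767 highest in replicate 2 and not in replicate 1. Their pooled signals, with a median of 100.07, lay close to the 89.1 at the bottom of the reproducible list. Over all 10 collagen regions Spearman's rho between the replicates' signals was 0.733 (n = 10 regions, which share the same libraries). The 4 regions at small RNA genes had the highest signals in both replicates, so this rho does not show that the others kept their order. Among the 5 coding-exon regions sqt-3 was lowest in replicate 1 (28.0), and col-91 was lowest in replicate 2 (51.3).

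**Figure D1:**
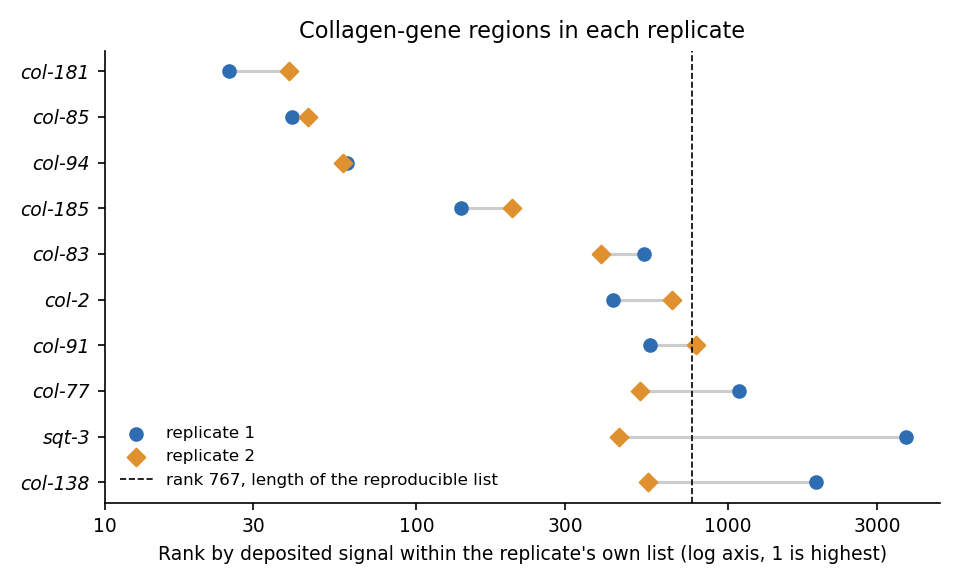
Rank by deposited signal of the 10 collagen-gene regions in replicate 1 (circles) and replicate 2 (diamonds), on a log axis with rank 1 the highest; the dashed line marks rank 767. The 4 regions at small RNA genes ranked 25 to 202 in both replicates, and the coding-exon regions of sqt-3 and col-138 ranked 3713 and 1908 in replicate 1.

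The region upstream of col-2 (chrIV:10085686-10086145), a collagen gene described as expressed in dauer larvae, had a pooled signal of 106, with 51.6 in replicate 1 and 55.0 in replicate 2. Its summit lay 465 bp upstream of col-2 but 221 bp from the start of ndc-80, a kinetochore gene, and 433 bp from the piRNA gene 21ur-14295. It was the single reproducible summit in the 500 bp upstream of any collagen gene, so 1 of 171 (0.585%) had one there, against 378 of all genes (1.89%). In the permissive pooled list 23 collagen genes had a summit within that distance upstream (13.5%), against 3770 genes (18.9%). Up to 2000 bp upstream the reproducible list gave 3 collagen genes (1.75%, against 3.3%), and the pooled list 57 (33.3%, against 43.1%). Some of these pooled summits lay in a coding exon of a neighbouring collagen gene.

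Regions near collagen starts mostly lay downstream of the start. Of the 10 collagen summits 7 lay downstream of the start (70%), against 177 of the 855 pairs of a gene and a reproducible summit over all protein-coding genes (20.7%). Of the 10, 5 lay in a coding exon of the gene (50%), against 15 of the 855 pairs (1.75%). No collagen summit lay within 300 bp of its start, against 290 of 855 (33.9%), and 3 lay within 500 bp, against 420 (49.1%). The pooled list gave 291 pairs of a collagen gene and a summit within 2000 bp of its start. In 211 of these pairs the summit lay at or downstream of the start, and in 181 it lay in a coding exon of that gene. A summit near several collagen genes was counted for each of them. These are counts in 1 set of lists, with no test of the difference.

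**Figure D2:**
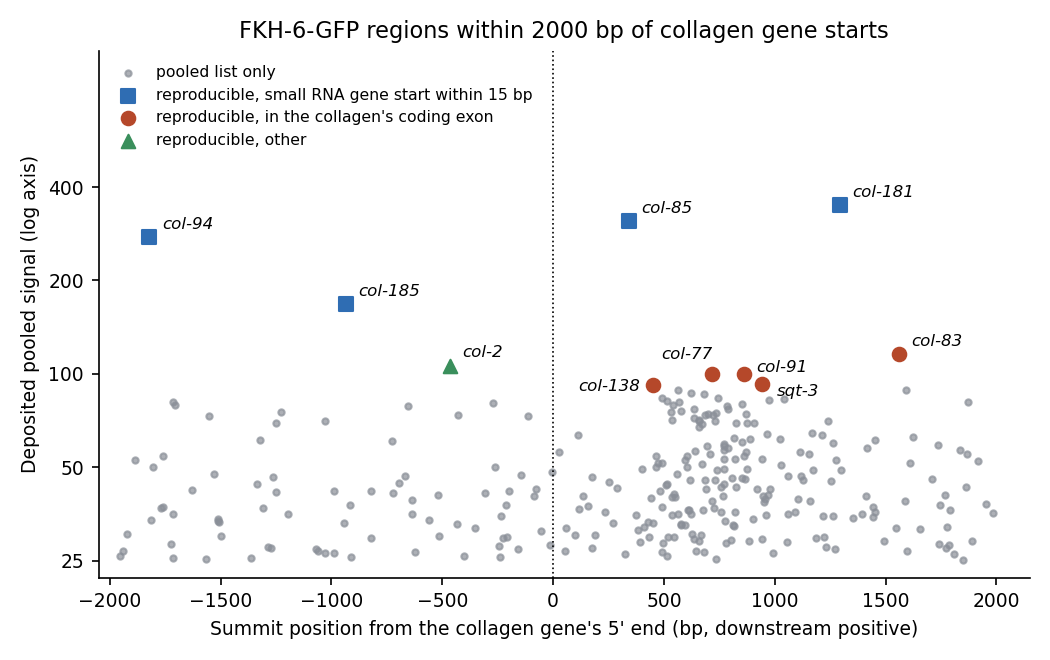
Deposited pooled signal (log axis) of every pooled summit within 2000 bp of a collagen gene's 5' end against its position, downstream positive; squares are reproducible summits within 15 bp of a small RNA gene start, circles are reproducible summits in the collagen's coding exons, the triangle is col-2 and grey points are in the pooled list only. The 4 squares lie at signals of 168 to 349, and the 5 circles at 92.2 to 115 sit at the top of a cloud of pooled summits downstream of the start. A summit near several collagen genes is drawn for each of them.

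Over the whole family, collagen coding exons held summits of the pooled list, background included, in most genes. In the pooled list 133 of the 171 collagen genes had a summit in their coding exons, or 77.8% (95% Wilson interval 71.0 to 83.4%), against 4938 of all protein-coding genes, or 24.7%. The 192 summits in collagen coding exons came to 1.14 per kb of coding sequence, and the 6901 in other genes to 0.281 per kb. The median pooled signal of these summits was 44.5 in collagen genes and 33.9 in other genes. Of the 192 collagen summits 16 had a −log10 q-value of 2 or more, and of the 6901 in other genes 41 did. At a deposited −log10 q-value of 2 or more, 24 collagen genes had a pooled summit within 2000 bp of the start (14%, against 5.66% of all genes), and 16 had one in a coding exon (9.36%), against 57 of all genes (0.285%). In the reproducible list the count was 5 collagen genes (2.92%) against 24 genes in all (0.12%). Collagen genes thus held 5 of the 24 nuclear reproducible summits in coding exons, or 20.8%, with 0.681% of the coding bases of the genome.

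Coding-exon summits were also present in each replicate's own list. A −log10 q-value of 2 was reached by 14 of the 182 collagen coding-exon summits of replicate 2. In replicate 1 the values ended at 1.86, which the col-181 and col-185 regions shared, so that limit cannot sort its regions. Replicate 1 had one in 125 collagen genes (73.1%), against 20.1% of all genes, and replicate 2 in 127 (74.3%), against 25.8%. Both replicates had one in 110 collagen genes (64.3%), against 11.5% of all genes. In 81 the summits of the replicates lay within 100 bp of each other (47.4%), against 6.26%. Among genes with one in both replicates these were 81 of 110 collagen genes and 1250 of 2298 genes in all, a smaller contrast. Among each replicate's 767 highest regions the counts were 9 collagen genes (5.26%) in replicate 1, against 0.215% of all genes, and 8 (4.68%) in replicate 2, against 0.155%. Both replicates were made with the same transgenic strain and antibody, and control regions were not analysed here, so binding by FKH-6 and recovery of these sequences by the procedure cannot be told apart here.

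Within the coding sequence the summits lay in the middle and later part, where the longest Gly-X-Y runs of these proteins usually are. The median summit lay 59.8% of the way from start codon to stop codon in collagen genes, against 50.07% in other genes. The stretch from 50 to 60% held 45 of the 192 summits and that from 60 to 70% held 43. The first 30% and the last 10% together held 15, or 7.81%, against 2749 of 6902 in other genes, or 39.8%; here 1 summit that lies in the coding exons of 2 genes was counted for each. Windows of 101 bp at the collagen summits had a median of 30.3% GGN codons, against a median of 20.8% over the whole coding sequences they came from, and 156 of the 192 windows were above their own gene. Over whole coding sequences the median was 20.7% GGN codons in collagen genes and 4.83% in other genes.

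**Figure D3:**
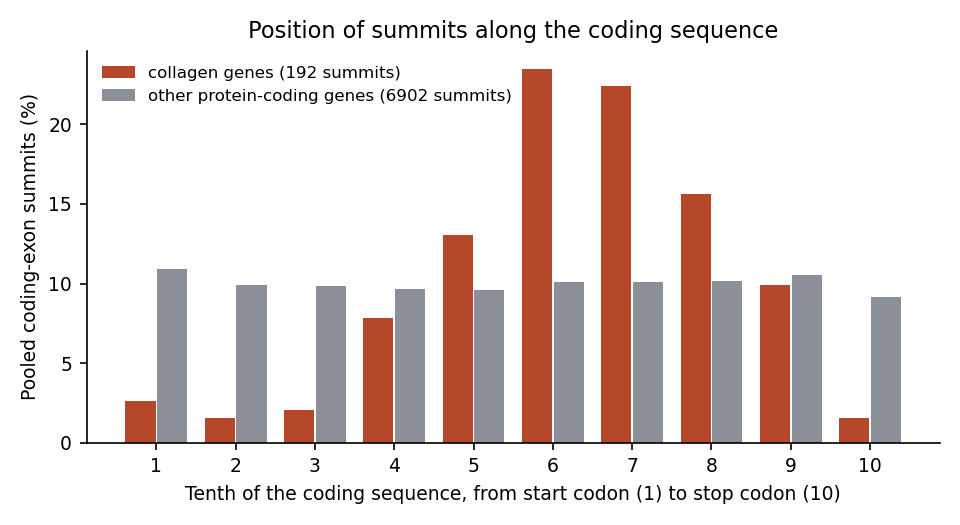
Share of pooled coding-exon summits (%) in each 10% stretch of the coding sequence, from start codon to stop codon, in collagen genes (192 summits) and other protein-coding genes (6902 summits). In collagen genes the stretches from 50 to 60% and from 60 to 70% hold 23.4 and 22.4% of the summits, while in other genes each stretch holds 9.16 to 10.9%.

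Base composition moved with these counts. Collagen coding sequences had a median GC content of 55.1% (43.4 to 62.6%), against 42.5% in other genes, and the windows at coding-exon summits had 59.4% in collagen genes and 46.5% in other genes. The 5 reproducible coding-exon windows had 60.4 to 73.3%, against a median of 50.5% over all nuclear reproducible summits. Of the 192 collagen windows 160 had a higher GC content than their own gene. Genes were therefore set side by side in bins of GC content of the coding sequence. From 45 to 50% GC, a pooled coding-exon summit was present in 75% of 24 collagen genes, against 39.3% of 4343 other genes. From 50 to 55% the shares were 81.0% of 58 and 44.6% of 1432, and from 55 to 60% they were 80.9% of 68 and 51.9% of 189. From 60 to 65% they were 61.1% of 18 and 53.8% of 26, with intervals that overlap.

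Other genes of such high GC content were shorter, with a median coding length of 453 bp from 55 to 60% GC and 288 bp from 60 to 65%, against 904.5 bp in collagen genes of each bin. The density of summits was 0.852 per kb in collagen genes and 0.497 in other genes from 45 to 50% GC, and 1.18 and 0.848 from 50 to 55%. From 55 to 60% GC it was 1.29 in collagen genes and 1.21 in other genes, and from 60 to 65% it was 1.01 in collagen genes and 1.54 in other genes, the opposite order to the shares. Collagen genes with and without a pooled coding-exon summit had median GC contents of 54.7% and 55.1%. The part of GC content in the collagen counts was not tested beyond these bins.

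**Figure D4:**
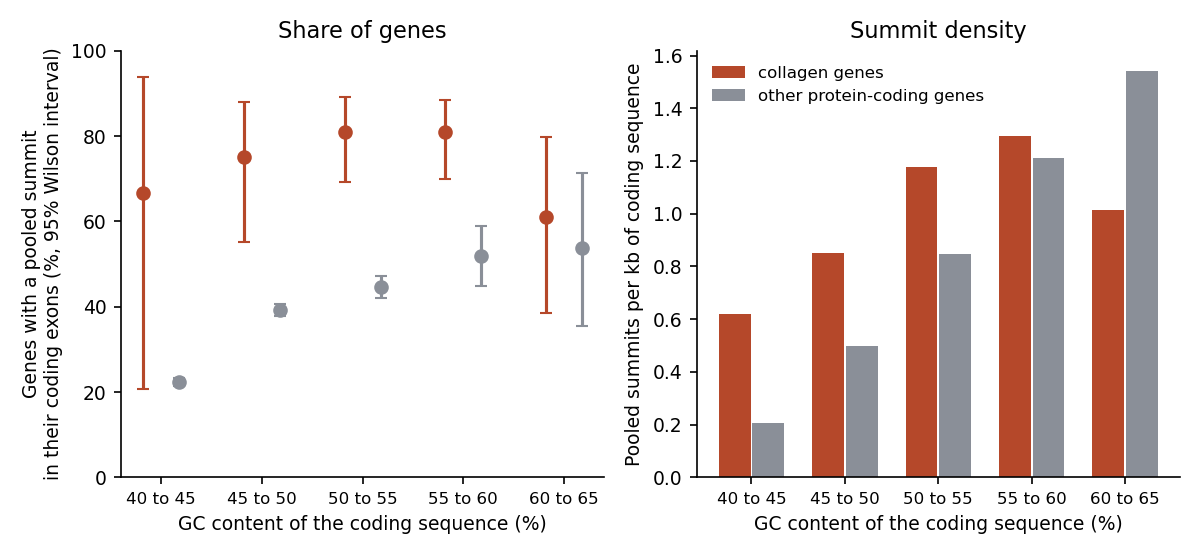
Left, share of genes with a pooled summit in their coding exons by GC content of the coding sequence, with 95% Wilson intervals; right, pooled summits per kb of coding sequence in the same bins, for collagen genes (red) and other protein-coding genes (grey). Shares in collagen genes stand above those in other genes from 45 to 60% GC, while the densities are 1.29 and 1.21 per kb from 55 to 60% and 1.01 and 1.54 per kb from 60 to 65%.

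Repeated sequence moved with the absence of summits. The share of a coding sequence's 32-base words that occur once in the genome was computed as a measure of how far short reads could be placed there; the read length and the treatment of multiply placed reads were not given in the sources used here. Its median was 99.8% over collagen genes, and 40 of the 171 fell under 90%. At 90% or more, 118 collagen genes had a pooled coding-exon summit (90.1% of such collagen genes), against 25.5% of 17958 such other genes. From 50 to under 90% it was 12 of 16 collagen genes (75%), against 19.2% of 1026 other genes, and under 50% it was 3 of 24 (12.5%), against 3.06% of 818. Among genes at 90% or more, the shares from 50 to 55% GC were 93.75% of 48 collagen genes and 52.5% of 1138 other genes, and from 55 to 60% GC they were 93.3% of 45 and 55.6% of 142. From 60 to 65% GC they were all 11 collagen genes and 52.4% of 21 other genes, with densities of 1.57 and 1.75 per kb. The densities were 1.39 per kb in collagen genes and 0.95 in other genes from 50 to 55% GC. From 55 to 60% GC the densities were closer, at 1.54 and 1.35 per kb.

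**Figure D5:**
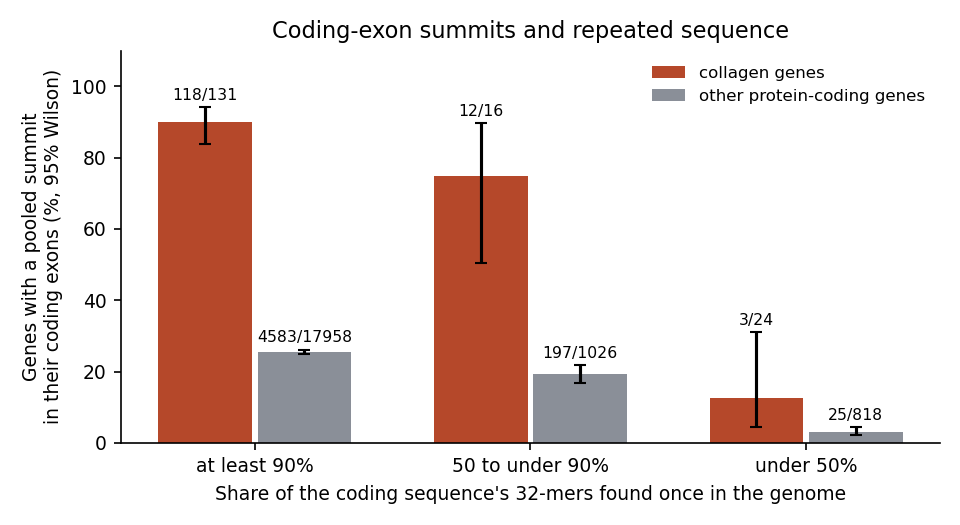
Share of genes with a pooled summit in their coding exons, with 95% Wilson intervals, by the share of the coding sequence's 32-base words found once in the genome, for collagen genes (red) and other protein-coding genes (grey); the numbers over the bars are genes with a summit over genes in the class. The share is 90.1% of collagen genes in the most unique class and 12.5% in the least, against 25.5% and 3.06% of other genes.

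The 29 collagen genes with no pooled summit within 2000 bp of their start (17%, against 39% of all genes) mostly carried repeated sequence. Their median share of words found once was 35.5%, and 21 of the 29 were under 90% (72.4%). Other genes with no pooled summit had a median of 100%, and 1138 of 7769 were under 90% (14.6%). The collagen genes included the neighbours col-12 and col-13, with 9.70 and 10.3% of words found once, col-126 and col-127, with 0% each, col-117 and col-3, with 0 and 2.56%, and col-92 and col-93, with 18.5 and 35.5%. The run col-167, col-168, col-169 and col-170 on the X chromosome had 14.4, 4.76, 36.6 and 23.8%. These shares cover coding sequence only, and whether reads could be placed at these genes was not tested. The lack of a region there is therefore not read as a lack of occupancy. Of the 24 collagen genes with under 50% of words found once, 6 did have a pooled summit within 2000 bp of the start. The genes col-60, col-78 and col-152 had 100% and col-150 had 99.6% of words found once and still had no pooled summit within 2000 bp. Of these, col-152 and col-150 had a coding-exon summit in replicate 2. Among the rest at 90% or more, col-52 had a pooled coding-exon summit farther from its start, with a signal of 69.5. There col-124 and col-137 had coding-exon summits in both replicates, and col-141 had one in replicate 1. The printed windows of 4 coding-exon regions and of col-2 were fully unique, with 70 of 70 words found once. The small RNA windows had 48 of 70 at col-181, 34 at col-85 and 34 at col-185.

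Across the family 142 collagen genes had a pooled summit within 2000 bp of the start (83.0%, against 61% of all genes). Replicate 1 gave 137 collagen genes (80.1%, against 54.3%) and replicate 2 gave 144 (84.2%, against 61.6%). The highest pooled signal per gene had a median of 54.3 (quartiles 41.9 and 71.9) over the 142 collagen genes, against 40.5 (31.8 and 54.1) over the 12175 genes with one. Counted within 500 bp of the start the order was the other way, with a median of 37.6 in collagen genes and 38.4 over all genes. The highest summit within 2000 bp lay in a coding exon of the gene for 108 of the 171 collagen genes (63.2%), against 1976 of all genes (9.89%), and upstream for 23 (13.5%), against 7055 (35.3%). Some of these upstream summits lay in a coding exon of a neighbouring collagen gene. That of col-80 lay in col-39 (81.2) and that of col-44 in col-9 (78.7). The counts and medians here take a shared summit once for each gene. Among the 767 highest regions of each replicate, 14 collagen genes had a summit in replicate 1 (8.19%, against 3.97%), 13 in replicate 2 (7.60%, against 4.12%) and 6 in both (3.51%, against 2.66%).

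The collagen genes with the highest pooled signals outside the reproducible list all had them in coding exons. They were col-122 with 88.7, bli-1 with 88.4, col-140 with 86.8, col-164 with 85.9 and col-175 with 83.7, at ranks 776, 785, 834, 873 and 945. In replicate 1 the regions with summits within 100 bp had signals of 43.8, 36.3, 31.7, 50.4 and 36.2, and in replicate 2 they had 43.6, 49.8, 55.4, 38.4 and 45.4. The reproducible list ended at a pooled signal of 89.1, so col-122 and bli-1 missed it narrowly.

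The collagen genes known by mutant phenotype were described by the structure or shape they serve, beside the whole family's shares of 5.85% with a reproducible region and 77.8% with a pooled coding-exon summit, and the 4.13 and 24.7% of all genes. The annular furrow collagens dpy-2, dpy-3, dpy-7, dpy-8, dpy-9 and dpy-10, whose loss gives short fat (Dumpy) worms and removes the furrows, had 0 of 6 with a reproducible region and 5 of 6 with a pooled coding-exon summit. Their highest pooled signals were 62.1 at dpy-7, 57.5 at dpy-10, 52.3 at dpy-9, 49.9 at dpy-2, 45.6 at dpy-3 and 44.1 at dpy-8, with a median of 51.1 beside the family's 54.3. At dpy-2 the summit was 1804 bp upstream and no pooled summit lay in its coding exons, though the list of replicate 2 had one there. The pooled summit of dpy-2 also lay upstream of dpy-10 and closer to the dpy-10 start, so the median includes a region nearer to a neighbour. At the highest summits of dpy-10 and dpy-9 replicate 1 had no region within 100 bp, and replicate 2 had 35.4 and 31.7. At that of dpy-3 replicate 2 had none, and replicate 1 had 23.2. For dpy-7, dpy-8 and dpy-2 both replicates had a region within 100 bp.

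The body shape collagens sqt-1, sqt-2, sqt-3, rol-6, dpy-5, dpy-13 and dpy-17, whose mutations give Dumpy, Squat or Roller animals, had 1 of 7 with a reproducible region, sqt-3. All 7 had a pooled coding-exon summit. Their highest pooled signals were 92.9 at sqt-3, 69.2 at dpy-17, 56.5 at dpy-13, 55.1 at sqt-1, 35.8 at rol-6, 34.7 at sqt-2 and 30.5 at dpy-5. At sqt-1 and sqt-2 the highest summit lay beyond the 3' end, and the coding-exon summits had 29.8 and 32.9. At the highest summits of rol-6 and dpy-5 replicate 1 had no region within 100 bp, and replicate 2 had 16.8 at rol-6 and 16.3 at dpy-5. The strut collagens bli-1 and bli-2, whose loss blisters the adult cuticle, had 88.4 and 50.04, both in coding exons, and neither was in the reproducible list. The transmembrane collagen gene col-99 had a highest pooled signal of 41.8 near its start, 989 bp upstream, and 3 pooled summits in its coding exons, the highest with 44.0.

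Short sequence motifs were counted on both strands in the 101 bp windows and in promoters, taken as 250 bp before to 50 bp after the gene start. The forkhead core GTAAACA was in 0 of the 10 collagen windows, against 1.07% of the 746 nuclear reproducible windows, and in 5.26% of collagen promoters, against 4.78% of all promoters. Its shorter form TAAACA, which every GTAAACA also contains, was in 1 window, against 3.62%, and in 19.9% of collagen promoters, against 24.9%. Neither was in any of the 192 pooled coding-exon windows of collagen genes, against 0.42% and 2.17% of those of other genes. GAGAGA was in 3 collagen windows, those of col-85, col-185 and col-2, against 21.4%, and in 28.1% of collagen promoters, against 21.8%. GGGCGG was in 2 windows, that of col-181 among them, against 9.38%, and in 15.8% of collagen promoters, against 7.87%. The GATA core GATAA was in 0 windows, against 9.92%, and in 64.3% of collagen promoters, against 57.7%. GGTTCGA, from the internal promoter of tRNA genes, was in the col-85 window alone, or 1 of 10, against 8.31%, and in 2.34% of collagen promoters, against 1.43%.

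Other genes of the cuticle were counted from lists chosen by function, beside 4.13% of all genes with a reproducible region and 24.7% with a pooled coding-exon summit. Of 6 cuticle collagen genes with names outside the rule, 0 had a reproducible region within 2000 bp of the start and all 6 had a pooled coding-exon summit. One of them, rol-1, had a reproducible summit in a coding exon 2962 bp from its start, with a pooled signal of 94.3. Of 17 genes for collagen modification and processing, 2 had a reproducible region. At mlt-7, a peroxidase gene needed for moulting and cuticle assembly, there were 3 summits, with pooled signals of 183 at 379 bp upstream, 107 at 174 bp upstream and 141 in an intron at 1675 bp downstream. The start of mlt-7 lies 9601 bp from that of fkh-6, and whether the transgene carries this stretch was not given in the sources used here. At tmem-39, which is needed for collagen secretion, the signal was 105 at 1021 bp upstream, nearer to rpl-24.1 at 284 bp and to a piRNA gene at 43 bp.

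Of 21 genes for other cuticle and apical matrix proteins, 2 had a reproducible region. The summit of cut-2, which encodes a cuticlin of the insoluble cuticle, lay in its coding exon 802 bp from the start with a pooled signal of 101, and mlt-9 had 90.7 at 315 bp upstream, 126 bp from the ncRNA gene F09B12.8. Of 16 regulators of cuticle genes 1 had a region, myrf-1, a membrane-bound transcription factor of larval development, with 126 at 370 bp upstream and 259 bp from the ncRNA gene F59B10.7. Of 4 collagens outside the cuticle 0 had one, and all 4 had a pooled coding-exon summit. Pooled coding-exon summits were found in 10 of the 17 modification genes, 10 of the 21 matrix genes and 6 of the 16 regulators, against 133 of the 171 collagen genes and 4938 of all 19973 genes (24.7%).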

How the data were processed

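FKH-6-GFP ChIP-seq region lists were analysed for 2 biological replicates of 1 group. Per the deposited descriptions, each replicate list was made from that replicate and a control, the pooled list from both replicates and a control, and the reproducible list from the replicate and pooled lists by the irreproducible discovery rate. The signal (column 7) and the −log10 q-value (column 9) are the authors' deposited values per region. The peak caller, aligner and read length were not given in the sources used here. Region lists give no counts per region, so depth is unknown. Wilson intervals (95%) cover counting error only, not the shared sequence and position of neighbouring genes. There were 0 columns of other samples. The lists on ce10 and control libraries were not analysed here. The sequences at 2 summits are not reported here.

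Summits were placed on ce11 (WBcel235) with the Ensembl release 115 annotation, using Python 3.11.15, NumPy 2.4.6, pandas 2.3.3, SciPy 1.17.1 and Matplotlib 3.10.9. A summit was assigned to each gene whose 5' end lay within 2000 bp, and replicate summits matched within 100 bp. The coding exons of a gene's transcripts were joined. No difference was tested, because there is 1 group. The members and gene lists were chosen with earlier results of these data known, and the counts in coding exons, GC bins, unique words and the 300 bp limit were added after values were seen. Genes were named by rule: those with a reproducible region, the members listed by name, the 5 highest outside the reproducible list, and those with a summit up to 2500 bp away. From the other lists, genes with a reproducible region were named. The genes rol-1, fkh-6, col-54 and col-99, and the members with no pooled summit near their start, were named after their values were seen. On 20 simulated sets of 746 regions, all 300 planted near collagen starts and all 300 planted in coding exons were recovered. The regions were planted by the rules that count them, so this checked the counting code only. Alternatives tried were other distances, matching limits, windows, gene starts, stricter lists and each replicate alone.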

Additional observations from a re-analysis of the deposited data

How the results depend on the processing

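Of 60 alternatives, 34 left a count within 1.5 times its value or the rank correlation unchanged, and 26 moved the value; any change of the median signal was counted as moved, and its alternatives lay within 1.5 times; the cause was not tested beyond the smaller or larger number of regions each setting uses. With starts within 500 bp, 3 collagen genes had a reproducible region in place of 10, 2 were nearest in place of 9, 2 had a non-coding start nearer in place of 7, 1 had a region nearer than any non-coding start in place of 3, 2 had a region in both replicates in place of 6, and the median pooled signal was 37.6 in place of 54.3, below the 38.4 of all genes. At 1000 bp, 4 had a non-coding start nearer, 3 had a region in both replicates and the median was 51.03 (38.8 over all genes). Among the 373 nuclear reproducible regions of highest signal 5 had a region, 5 were nearest, 0 had a region nearer than any non-coding start and 1 had a coding-exon summit in place of 5. Doubling the regions per replicate gave 16 in both.

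With the pooled list limited to a −log10 q-value from 2 upwards, added after seeing the data, 24 had a region, 20 were nearest, 14 had a region nearer than any non-coding start and 16 had a coding-exon summit. Without replicate 1 or 2 in turn, 13 to 14 had a region, 12 in each case were nearest, 8 to 9 had a non-coding start nearer, 5 in each case had a region nearer to them, and 8 to 9 had a coding-exon summit. The 133 genes with a pooled coding-exon summit became 125 to 127 without a replicate. In windows of 25 bp each side GGGCGG was in 1 window, TAAACA in 0 and GGTTCGA in 0; with 100 bp GGTTCGA was in 2. No paired analysis was possible because there is 1 group and no test. What depth limits could not be measured from lists with no counts.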
